A study of Mus musculus with 74 samples.

Results

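The genes that encode the proteins of the mitochondrial ribosome, called MRP genes here, were followed through the activation and differentiation of mouse CD4+ T cells. They were taken as all genes of the array annotation whose symbol begins with Mrpl (large subunit) or Mrps (small subunit) and a digit, and the brightest probe stood for each gene. This gave 76 of the 19031 genes with a single symbol. By subunit, 26 belong to the small and 50 to the large one, with Mrps18a and Mrps30 counted in the large subunit. Of these, 73 were among the 13817 genes above the threshold of expression, and 72 of the 73 exceeded it in each of the 37 conditions. Mrpl45 exceeded it in 32 conditions, so its later rise helped it to pass. Mrpl19, Mrpl32 and Mrps14 stayed below the threshold of 6.77 in each condition, with means over all arrays of 6.53, 6.34 and 6.54 on the log2 scale, and were not tested.

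Naive CD4+ CD62Lhi T cells were magnetically sorted from pooled spleen and lymph node of Balb/c mice aged 5 to 8 weeks and profiled on Illumina arrays before culture (0 h). All cultures received anti-CD3 and anti-CD28. Th0 cultures also received anti IFNg, anti IL4 and anti IL12, Th1 cultures IL-12 and anti IL4, Th2 cultures IL4, anti IL12 and anti IFNg, and Th1/2 hybrid cultures (labelled ThMix) IL12 and IL4. RNA was taken at 3, 6, 12, 24, 35, 48, 73, 96 and 120 h in 2 independent experiments, which gives 74 arrays and 2 arrays per condition.

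The mitochondrial ribosome translates the few mRNAs of the mitochondrial genome, which encode membrane subunits of the respiratory chain and of ATP synthase. Its RNAs come from mitochondrial DNA, whereas its proteins are encoded in the nucleus, made on cytosolic ribosomes and imported. The small subunit reads the mRNA and the large subunit joins the amino acids. Activated T cells are known to enlarge their mitochondrial mass before and during proliferation. In bulk RNA, fewer cells that express a gene and less RNA of that gene per cell cannot be told apart.

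Array medians of all probes lay between 107 and 111 intensity units, and the number of arrays limits the precision. The Th0 array at 96 h of experiment 2 and the Th1/2 array at 12 h of experiment 1 stood apart from the other cell types of the same time and experiment, with 720 and 405 genes at least 2-fold away, although no MRP gene was among them. The late mean of Ifng was 11.69 in Th1, 7.95 in Th1/2, 7.66 in Th0 and 6.80 in Th2 cultures. That of Tbx21 was 10.31, 9.97, 8.11 and 7.03 in this order. Gata3 gave 9.86, 12.72, 10.50 and 13.01, and Il4 9.20, 13.28, 8.55 and 12.89. Th1/2 cells thus had Gata3 and Il4 levels near those of Th2 cells and a Tbx21 level near that of Th1 cells. Their Ifng level was near that of Th0 cells. Cd3e and Cd4 were above the threshold at 0 h. Cd8b1 was also above it at all times, with a mean of 12.02 at 0 h, whereas Cd8a was not.

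Most MRP genes rose after activation and came back towards the level of naive cells by 120 h (plot of array medians). Against 0 h, in the mean of the 4 cell types, 21 of the 73 rose and 18 fell at 3 h (all genes tested: 15.7% higher, 21.5% lower), 48 rose and 2 fell at 6 h (21.7% and 23.2%), and 61 rose and none fell at 12 h (24.0% and 22.8%, or 46.8% in either direction). At 24 h, 67 rose and none fell (26.4% and 23.9%, together 50.3%), with a median log2 difference of 1.06, or 2.09-fold, against 0.04 over all genes. At 35 h, 66 rose and 1 fell (26.0% and 24.5%, together 50.5%), and at 48 h 61 rose and 1 fell (25.1% and 23.7%). At 73 h 50 rose and 1 fell (22.5% and 22.5%), at 96 h 25 rose and 8 fell (20.2% and 22.4%), and at 120 h 18 rose and 9 fell (19.8% and 22.7%). The median difference grew from -0.03 at 3 h to 0.66 at 6 h and 0.99 at 12 h. After 24 h it declined through 0.98, 0.75, 0.51 and 0.22 to reach 0.17 by 120 h. The late remainder turned on the 0 h arrays. At 96 and 120 h the median was 0.11 and 0.04 without naive replicate 2, and 0.25 and 0.20 without naive replicate 1. A change here is a limma adjusted p under 0.05, with Benjamini-Hochberg adjustment over all genes tested. All these comparisons share the 2 arrays at 0 h. The fit treated arrays of the same experiment and time as independent, so these p-values can be too small. Without naive replicate 1 the number lower fell to 5 at 3 h and to 4 at both 96 and 120 h.

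**Figure D1:**
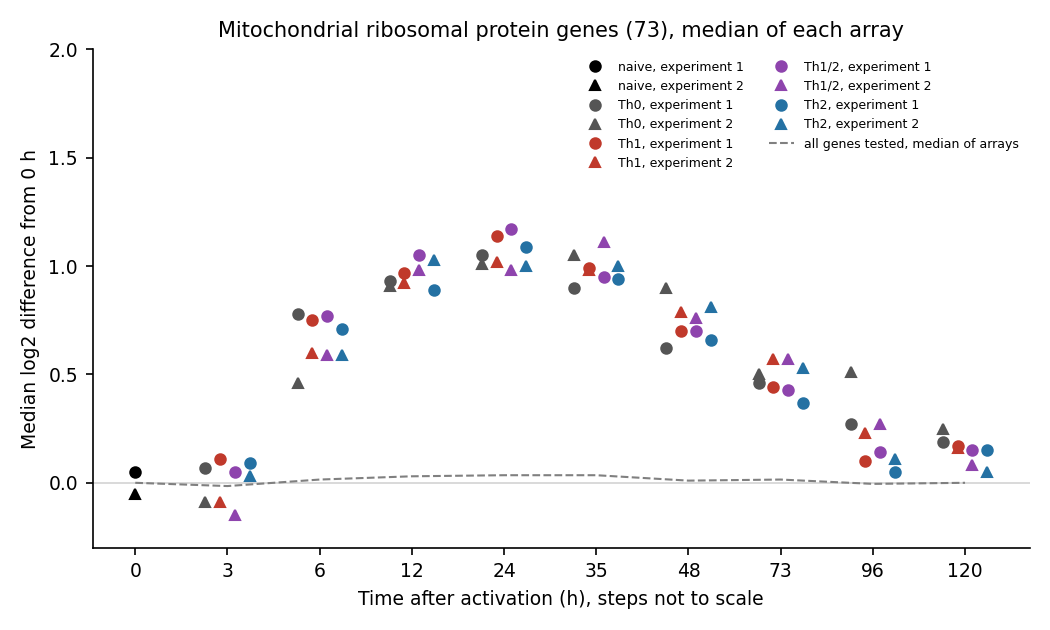
Median log2 difference of the 73 MRP genes from the mean of the 2 arrays at 0 h, on each array (vertical axis) at each time after activation (horizontal axis, steps not to scale). Colours are cell types, circles experiment 1 and triangles experiment 2, and the dashed line is the median over all genes tested. At 24 h the arrays lie around 1.06, and from 6 to 73 h each array lies above both 0 h arrays.

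The single arrays show the same course. At 24 h all 8 arrays lay above both 0 h arrays for 67 MRP genes, against 26.1% of the genes tested, and for none did all 8 lie below. At 120 h all 8 lay above for 19 and below for 8 (all genes: 17.9% and 20.2%). Between consecutive times, 67 rose from 3 to 6 h and none fell (22.2% and 19.3% of all genes), and 42 rose and 2 fell from 6 to 12 h (17.9% and 13.5%, together 31.4%). From 12 to 24 h the step was small, with 17 higher and 6 lower (17.0% and 17.3%) and a median of 0.08. From 35 to 48 h 37 fell and 3 rose (15.4% and 16.2%), from 48 to 73 h 41 fell and 2 rose (16.1% and 16.8%, together 32.9%), and from 73 to 96 h 49 fell and none rose (10.6% and 7.40%). From 96 to 120 h 2 fell (3.47%) and none rose (2.35%, or 5.83% in either direction). The step from 24 to 35 h, with 14 lower (7.51%) and 2 higher (5.86%), turned on the Th1 arrays, since 4 were lower without Th1 replicate 1. The highest mean after 0 h was reached at 24 h by 38 MRP genes, while 15 peaked at 12 h and 11 at 35 h. Of the 13817 genes tested, 1754, 1513 and 1040 peaked at these times. A peak was taken also for genes with no called rise. The 4 with a peak at 6 h were Mrps6, Mrpl3, Mrpl50 and Mrpl35. The 4 with a peak at 48 h were Mrpl1, Mrps16, Mrps33 and Mrps9. Mrpl14 was highest at 96 h, at 1.00 against 0.97 at 120 h. Over all genes 1804, 1162 and 1117 peaked at 6, 48 and 96 h.

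Markers of other cells also changed between 0 h and later times. All 3 myeloid markers above the threshold at 0 h (Lyz2, Cd14 and Csf1r) had lower means at 24 to 35 h, and the sum of the 4 listed myeloid markers was 1170 to 1770 intensity units at 0 h, 379 to 1120 at 3 to 12 h and 340 to 402 at 24 to 35 h. The 2 erythroid markers on the array (Hba-a1 and Alas2) summed to 3160 to 4900 at 0 h, 691 to 5010 at 3 to 12 h and 222 to 537 at 24 to 35 h. The 2 B cell markers on the array (Cd79b and Ms4a1) summed to 749 to 1120 at 0 h, 290 to 1400 at 3 to 12 h, 247 to 570 at 24 to 35 h and 242 to 747 at 48 to 120 h. Itgam and Ncr1 were below the threshold in each condition. Their part in the differences from 0 h was not tested.

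Both subunits took part. At 24 to 35 h against 0 h, 24 of 25 small subunit genes and 44 of 48 large subunit genes rose and none fell (27.0% and 24.8% of all genes), with median log2 differences of 0.99 and 1.02. In the small subunit, proteins listed with a bacterial counterpart gave a median of 0.98 (13 of 14 higher) and the other, mitochondrial ones 1.05 (11 of 11). The large subunit gave 1.13 (25 of 27) and 0.96 (19 of 21). Mrps18a and Mrps18b, which are paralogs of a bacterial protein, were counted among the mitochondrial ones. In the large subunit, the 3 stalk genes Mrpl10, Mrpl11 and Mrpl12, whose proteins recruit translation factors, rose by 0.73, 1.21 and 1.95. The 4 genes of the region around the peptidyl transferase centre, Mrpl2, Mrpl3, Mrpl16 and Mrpl27, rose by 1.17, 1.13, 1.18 and 0.92. The 5 genes of the central protuberance, Mrpl18, Mrpl38, Mrpl40, Mrpl46 and Mrpl48, rose by 1.44, 0.94, 1.33, 0.86 and 1.05. Of the 5 genes at the exit tunnel, Mrpl22, Mrpl23 and Mrpl47 rose by 1.17, 0.41 and 1.69, while Mrpl24 gave -0.19 ± 0.09 (SE, adjusted p = 0.0726). Mrpl45 read 6.55 on both 0 h arrays, below the threshold, and 7.54 to 8.01 (median 7.76) at 24 h, so no fold is given for it. Because it passed the filter through its later level, it had to differ from 0 h, and the counts of genes higher include it at each time from 6 h.

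**Figure D2:**
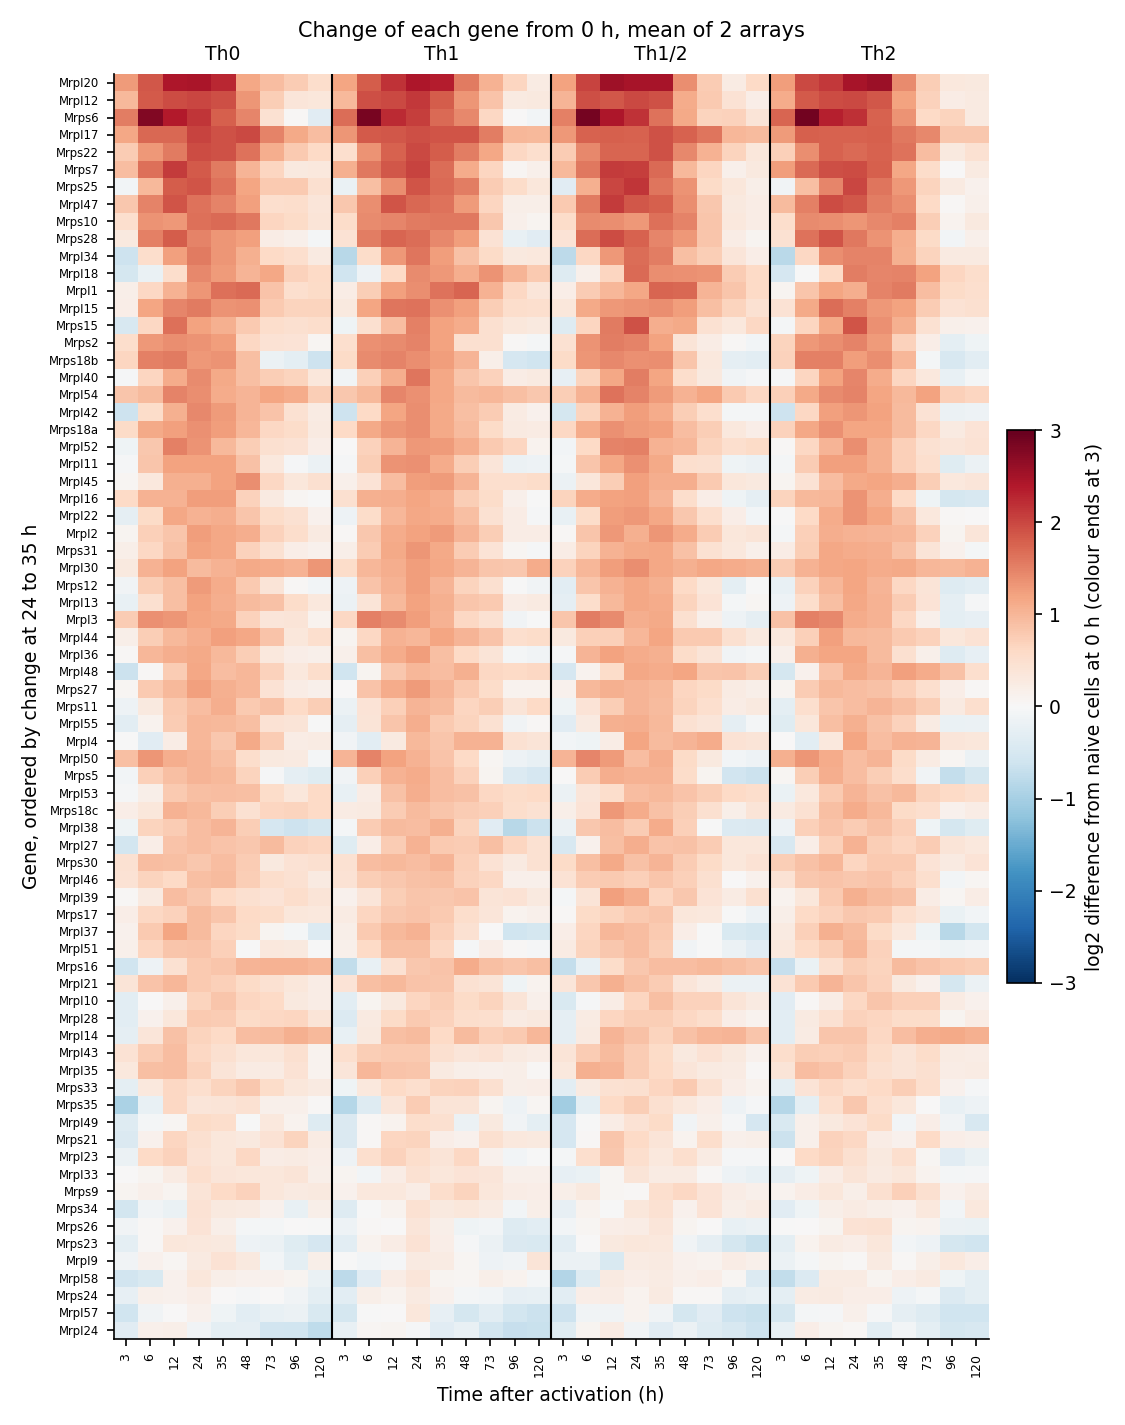
Log2 difference from naive cells at 0 h (colour, red higher and blue lower) of the 73 MRP genes (rows, ordered by their change at 24 to 35 h) in each cell type at each time in hours (columns), as the mean of 2 arrays. Mrpl20 (2.44 at 24 to 35 h) stands at the top and Mrpl24 (-0.19) at the bottom, and the 4 blocks of cell types show the same rise and fall.

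The 5 largest changes at 24 to 35 h were those of Mrpl20, Mrpl12, Mrps6, Mrpl17 and Mrps22. Mrpl20, a large subunit protein, was at 9.72 and 10.11 on the log2 scale on the 0 h arrays and at 12.27 to 12.45 (median 12.39) on the 8 arrays at 24 h. It lay above both 0 h arrays on all 8 arrays from 3 to 73 h and on 4 of 8 at 120 h. Its difference at 24 to 35 h was 2.44 ± 0.20 (SE), or 5.41-fold (limma, adjusted p = 7.33e-14), and 2.55 and 2.33 in the 2 experiments. A second, dim Mrpl20 probe with a mean of 6.82, near the threshold, gave 0.04. Mrpl12, a stalk protein that has also been described as a partner of the mitochondrial RNA polymerase, was at 11.43 and 11.45 at 0 h and at 13.35 to 13.58 (median 13.45) at 24 h. It rose by 1.95 ± 0.12 (adjusted p = 5.19e-18) and lay above 0 h on all 8 arrays at each later time.

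Mrps6, a small subunit protein, was the fastest to rise. It went from 10.41 and 11.00 at 0 h to 12.04 to 12.61 (median 12.34) at 3 h and to 13.42 to 13.73 (median 13.54) at 6 h. The 6 h difference of 2.85 ± 0.12, or 7.19-fold (adjusted p = 5.78e-22), was its peak. By 120 h its arrays spread from 10.30 to 11.14 (median 10.80) on both sides of the 0 h arrays, with a difference of 0.06 ± 0.12 (adjusted p = 0.763). Mrpl17 rose by 1.88 ± 0.10 (adjusted p = 2.28e-19) and Mrps22 by 1.85 ± 0.15 (adjusted p = 1.86e-14) at 24 to 35 h. Next in size among the genes with at least 2-fold changes at 2 consecutive times were Mrps7 at 1.83, Mrps25 at 1.81, Mrpl47 at 1.69, Mrps10 at 1.53 and Mrps28 at 1.51.

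The sequences before the start of 4 of these 5 genes are shown because each holds at least 1 of 4 motifs that are known at promoters of nuclear genes for mitochondrial proteins or growth genes. The motifs were chosen after the data had been seen. They are the NRF1 motif (GCGCA, any base, then GCGC), the ETS motif CCGGAAG, bound by GABP among others, the E-box CACGTG, bound by Myc among others, and the YY1 motif AAGATGGCG, searched on both strands of the 250 bases before each RefSeq start (GRCm38.p6). The 4 letter strings share no overlap in the sequences shown. Mrpl20 (chr4:155802628-155802877 on the plus strand), Mrpl12 (chr11:120484387-120484636 on the plus strand), Mrpl17 (chr7:105811088-105811337 on the minus strand) and Mrps22 (chr9:98601680-98601929 on the minus strand) are given 5′ to 3′ on the strand of the gene, with matches in capitals.
Mrpl20: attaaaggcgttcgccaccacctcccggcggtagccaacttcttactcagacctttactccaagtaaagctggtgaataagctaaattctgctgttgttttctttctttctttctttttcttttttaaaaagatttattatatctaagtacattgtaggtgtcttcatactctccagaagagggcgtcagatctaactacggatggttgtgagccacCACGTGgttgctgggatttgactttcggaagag
Mrpl12: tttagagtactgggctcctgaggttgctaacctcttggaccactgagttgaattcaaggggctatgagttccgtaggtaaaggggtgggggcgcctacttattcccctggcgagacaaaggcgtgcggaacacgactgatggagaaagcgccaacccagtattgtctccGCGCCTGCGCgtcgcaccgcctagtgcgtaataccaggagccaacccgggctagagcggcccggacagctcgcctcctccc
Mrpl17: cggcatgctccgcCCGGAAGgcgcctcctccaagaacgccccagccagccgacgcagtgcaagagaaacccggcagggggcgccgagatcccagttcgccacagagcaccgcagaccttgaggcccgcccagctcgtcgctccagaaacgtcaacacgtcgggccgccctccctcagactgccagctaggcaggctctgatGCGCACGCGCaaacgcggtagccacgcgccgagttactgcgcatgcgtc
Mrps22: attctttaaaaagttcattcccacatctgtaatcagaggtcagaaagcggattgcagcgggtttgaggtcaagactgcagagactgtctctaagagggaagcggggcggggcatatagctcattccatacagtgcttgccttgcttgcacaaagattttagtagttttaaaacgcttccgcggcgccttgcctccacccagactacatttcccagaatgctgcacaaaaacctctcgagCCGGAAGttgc
Mrpl20 holds an E-box, Mrpl12 an NRF1 motif, Mrpl17 an NRF1 and an ETS motif, and Mrps22 an ETS motif, while the window of Mrps6 holds none of the 4.

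A promoter was given for 67 of the 76 MRP genes. The NRF1 motif was present in 10 (14.9%), against 7.13% of the 11117 promoters of genes tested and 3.74% of all 32851 promoters. The ETS motif was present in 17 (25.4%), against 11.8% and 6.91%, and in 15 of 46 promoters of cytosolic ribosomal protein genes (32.6%). The E-box was present in 5 (7.46%, against 7.89% and 6.02%) and the YY1 motif in 2 (2.99%, against 0.980% and 0.606%). The median change at 24 to 35 h was 1.08 in the 9 tested MRP genes with the NRF1 motif and 0.98 in the 56 without, and 1.05 in the 17 with the ETS motif and 0.98 in the 48 without. These are descriptions of letters in a window, with no test.

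By their calls at 3 h the genes were put into 3 groups. Those higher made up 28.8% of the 73, above the share of all genes that were higher. Those lower made up 24.7%, near the share of all genes that were lower, and their number became 5 without naive replicate 1. The 21 higher at 3 h (6 small and 15 large subunit) included Mrps6, Mrpl17, Mrpl20, Mrps7, Mrpl12 and Mrpl50 at 1.62, 1.27, 1.23, 1.05, 1.02 and 1.01. The 18 lower at 3 h (7 small and 11 large subunit) included Mrps35 at -0.92, Mrpl34 at -0.76, Mrpl58, a peptidyl-tRNA hydrolase that frees stalled ribosomes, at -0.75, and Mrps16 at -0.69. Because all groups share the 0 h arrays with the later differences, their later values are given side by side with no test. At 24 h, 21 of the 21, 14 of the 18 and 32 of the 34 not called at 3 h were higher than at 0 h, with median differences of 1.44, 0.62 and 1.05.

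Lower levels at 3 h were seen on single arrays. All 8 arrays at 3 h lay below both 0 h arrays for 18 MRP genes and for 22.9% of all genes tested. They lay above both for 21 MRP genes and for 16.9% of all genes. Mrps35, a small subunit protein, was at 10.71 and 10.72 at 0 h, at 9.63 to 9.93 (median 9.81) at 3 h and at 11.02 to 11.69 (median 11.43) at 24 h. All 8 arrays lay below 0 h at 3 and 6 h and all 8 above it from 12 to 48 h. Its 3 h difference of -0.92 ± 0.14 had an adjusted p of 3.93e-07. Mrpl48, a protein of the central protuberance, was at 10.23 and 10.35 at 0 h, at 9.61 to 9.89 (median 9.69) at 3 h and at 11.27 to 11.52 (median 11.39) at 24 h, with 8 arrays below 0 h first and 8 above it later. Its 3 h difference was -0.57 ± 0.14 (adjusted p = 7.61e-04).

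**Figure D3:**
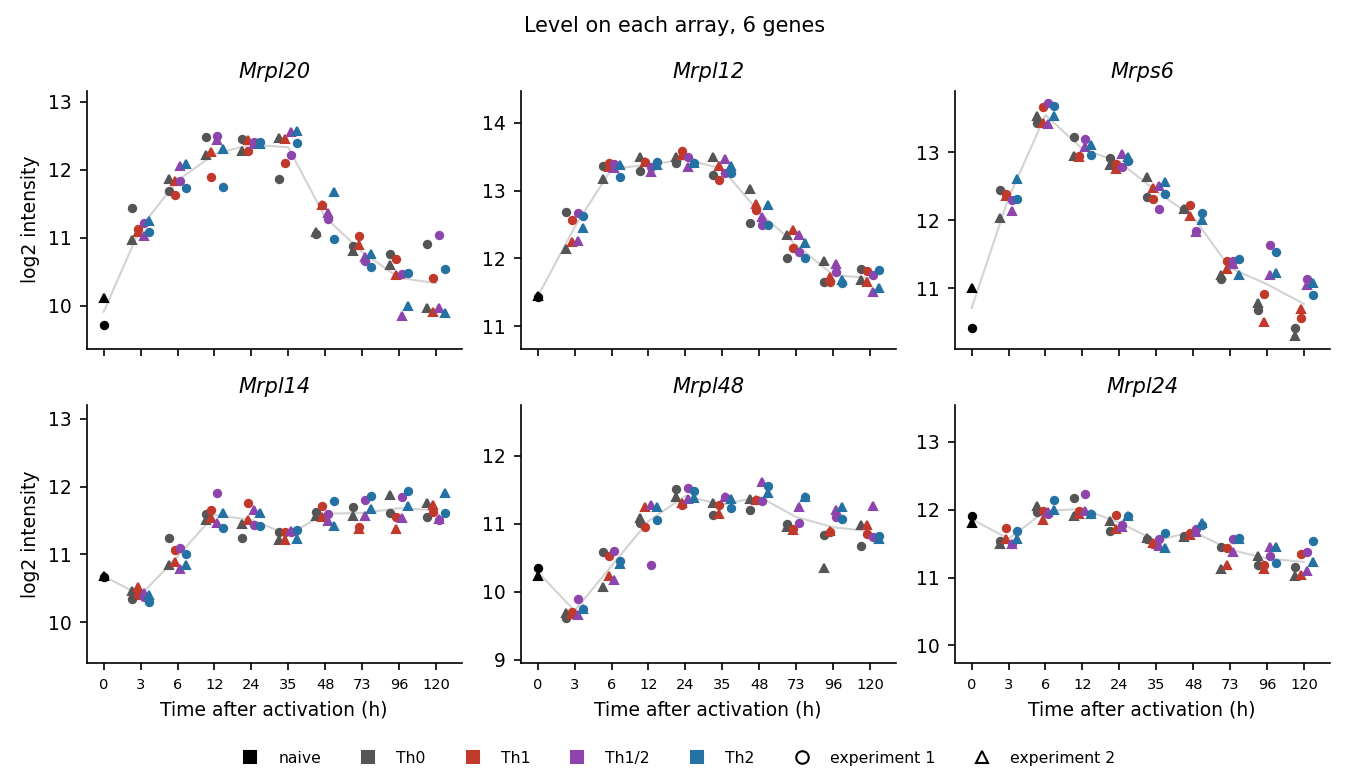
Log2 intensity of 6 MRP genes on each array (vertical axes, each of the same span) against time after activation in hours (horizontal axis, steps not to scale), with colours for cell types, circles for experiment 1, triangles for experiment 2 and a grey line through the means. Mrps6 peaks at 6 h, Mrpl20 and Mrpl12 between 12 and 35 h, Mrpl14 stays high at 120 h, Mrpl48 dips at 3 h, and Mrpl24 ends below its 0 h level.

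A few genes kept a raised level to the end. At 120 h the largest differences from 0 h were those of Mrpl30 (1.14 ± 0.14, adjusted p = 2.96e-09), Mrpl14 (0.97 ± 0.11, 1.83e-09), Mrpl17 (0.91 ± 0.11, 2.64e-09), Mrps16 (0.87 ± 0.08, 1.39e-11) and Mrpl54 (0.70 ± 0.10, 7.70e-08). These genes were named for their values. Mrpl14, a large subunit protein at the face that meets the small subunit, was at 10.67 and 10.68 at 0 h, at 10.30 to 10.52 (median 10.41) at 3 h and at 11.51 to 11.90 (median 11.62) at 120 h. All 8 arrays lay below 0 h at 3 h and above it at each time from 6 to 120 h. Mrps16 was at 11.05 and 11.23 at 0 h, at 10.37 to 10.55 (median 10.44) at 3 h and at 11.83 to 12.18 (median 12.03) at 120 h, again with no overlap with 0 h at either time.

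Others ended below naive cells. The 9 genes lower at 120 h made up 12.3% of the 73, under the share of all genes, and became 4 without naive replicate 1. Mrpl24 was at 11.81 and 11.91 at 0 h and at 11.02 to 11.54 (median 11.20) at 120 h, a difference of -0.63 ± 0.09 (adjusted p = 2.10e-07). It was followed by Mrpl57 at -0.59 ± 0.14 (adjusted p = 6.30e-04), Mrps23 at -0.56 ± 0.11 (3.56e-05), Mrpl37 at -0.51 ± 0.11 (1.49e-04), Mrps5 at -0.51 ± 0.15 (0.0038) and Mrpl38 at -0.50 ± 0.13 (0.00168). At 120 h other probes gave -0.42 for Mrps23, -0.26 for Mrpl37, 0.01 for Mrps5 and -0.74 for Mrpl38. The 5 smallest changes at 24 to 35 h did not pass the test. They were Mrpl24 at -0.19, Mrpl57 at 0.02, Mrps24 at 0.18, Mrpl58 at 0.22 and Mrpl9 at 0.26.

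Mrps18a, Mrps18b and Mrps18c are paralogs of 1 bacterial protein, the first a part of the large subunit despite its name. At 24 to 35 h they rose by 1.26 ± 0.12, 1.34 ± 0.11 and 0.95 ± 0.16. Mrps18b was at 11.18 and 11.34 at 0 h, at 12.44 to 12.77 (median 12.58) at 24 h and at 10.56 to 10.99 (median 10.84) at 120 h. Its 120 h arrays all lay below both 0 h arrays (-0.46 ± 0.12, adjusted p = 0.00168), whereas Mrps18c was higher at 120 h than at 0 h (0.42 ± 0.17, adjusted p = 0.0396). The rise of Mrps18c came from experiment 1, with 0.97 against -0.14 in experiment 2. The 2 further Mrps18b probes gave 1.73 and 1.88 at 24 to 35 h and -0.10 and -0.01 at 120 h. Mrps30, which also belongs to the large subunit, rose by 0.87 ± 0.09.

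By the rule for kinetic genes, an F-test over the times of a cell type and a change of at least 2-fold in 1 direction at 2 consecutive times, the Th0 cultures had 37 rising MRP genes, the Th1 cultures 38, the Th1/2 cultures 43 and the Th2 cultures 37 (all genes: 15.3%, 15.6%, 16.5% and 16.2%). In at least 1 cell type 45 rose (19.7%) and in all 4 cell types 34 (12.5%), while none fell (14.5%). Each of these counts of rising genes includes Mrpl45, which passed the filter through its later level. The 5 that met the rule in a single cell type were Mrpl35, Mrpl39, Mrpl55 and Mrps18c in Th1/2 and Mrps16 in Th0 cells, which does not show that the cell types differ. The Th1/2 count includes the 12 h array of experiment 1 that stood apart. On it Mrpl35, Mrpl39, Mrpl55 and Mrps18c departed from the other cell types by 0.22, 0.74, 0.44 and 0.67. The departures in experiment 2 were 0.08, 0.11, 0.04 and 0.12. Time held a median of 87.8% of the variance of the MRP genes over the arrays after 0 h, cell type 0.684%, their interaction 3.51% and the experiment 0.138%, against 61.8%, 2.45%, 12.6% and 0.699% for all genes.

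Other parts of the translation apparatus were compared at 24 to 35 h against 0 h, as a description (plot of list medians). The shares of all genes that rose and fell in this window are given above with the subunits. Of 73 respiratory chain and ATP synthase subunits encoded in the nucleus, 54 rose and 8 fell, with a median of 0.60, from Cox7a2l at -1.49 and Uqcrq at -1.38 to Atp5a1 at 1.75 and Cox7a2 at 1.84. Of 13 mitochondrial translation factors, 8 rose and 1 fell (median 0.56), led by the elongation factors Gfm1 at 1.80 and Tsfm at 1.69, while the initiation factor Mtif3 was at -0.36. Of 18 mitochondrial aminoacyl-tRNA synthetases and related enzymes, 9 rose and 3 fell (median 0.30), with Rars2 at 1.06 and Gatb at 0.95 but Wars2 at -0.75 and Ears2 at -0.73. Of 17 assembly factors, 9 rose and 1 fell (median 0.20), with Mrm3 at 1.20, Tfb1m at 1.17 and Dhx30 at -0.42.

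Of the 4 mitochondrial ribosomal proteins with other symbols, Chchd1 (0.87), Ptcd3 (0.76) and Gadd45gip1 (0.52) rose, and Dap3 gave 0.21 (adjusted p = 0.0517). Of 9 genes of mitochondrial transcription and mRNA handling, 6 rose and 1 fell (median 0.50). In this list Slirp and Lrpprc, which stabilise mitochondrial mRNA, were at 1.62 and 1.40 and the RNA polymerase Polrmt at -0.53. None of the 8 mitochondrially encoded transcripts on the array passed limma's test at 24 to 35 h, in either direction or before adjustment (median -0.16). At 120 h 5 of the 8 were lower, a larger share than over all genes.

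Among 54 cytosolic ribosomal protein genes, 10 rose and 12 fell, with a median of -0.11. Both counts lie under the shares of all genes that rose and fell in this window. Their level bears on this comparison. The median level at 0 h was 15.46 for the cytosolic and 10.85 for the MRP genes on the log2 scale of probe intensities, and the brightest gene tested stood at 15.97. Of the 14 cytosolic genes whose mean over all arrays was no higher than that of the brightest MRP gene (13.55), 9 rose and none fell (median 0.50), and of the 40 brighter ones 1 rose and 12 fell (median -0.12). The share that the ceiling of the scale had in this was not tested. Rpl7l1 (1.82) and Rplp0 (1.47) gave the largest rises and Rps15 (-0.56) and Rps25 (-0.50) the largest falls.

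**Figure D4:**
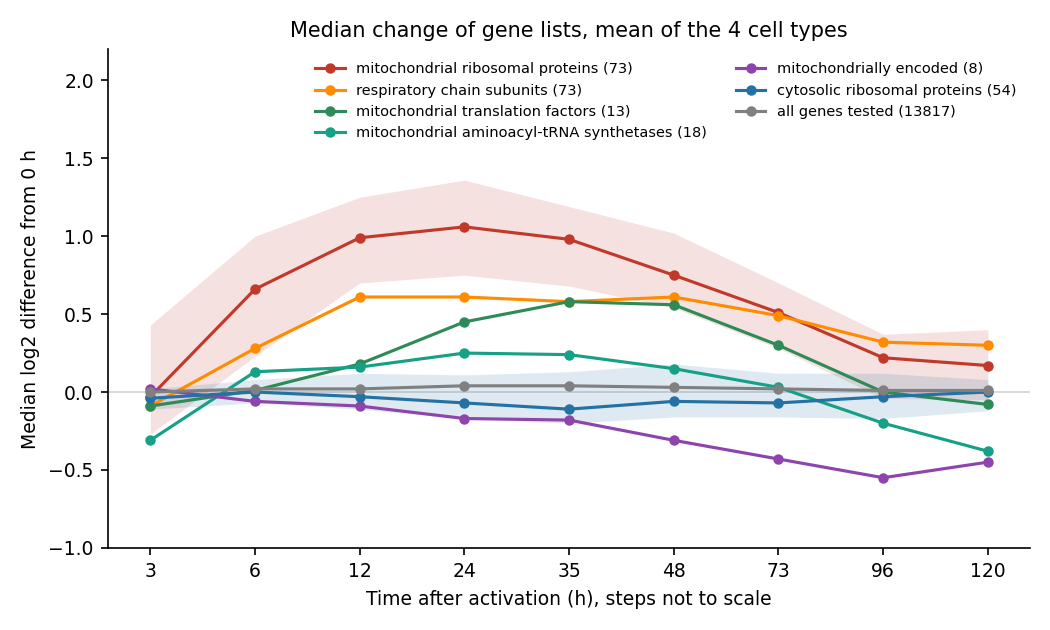
Median log2 difference from 0 h (vertical axis), in the mean of the 4 cell types, of 7 gene lists at each time after activation (horizontal axis, steps not to scale), with the number of genes tested in brackets. Shaded bands are the quartiles of the MRP genes and of the cytosolic ribosomal protein genes. The MRP genes reach 1.06 at 24 h, and the cytosolic list stays near 0, at -0.11 in the mean of 24 to 35 h.

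Whether the MRP genes differed between the cell types was tested over 3 windows of time, in 6 comparisons each. Over 3 to 12 h, 1 of the 438 tests passed, for Mrpl33 in Th1/2 vs. Th0 cells (-0.24 ± 0.06, adjusted p = 0.0162, all genes in this comparison 2.81%), a call lost without Th0 replicate 1 or Th1/2 replicate 2, and over 24 to 35 h none did by limma, with 11 at an unadjusted p under 0.05 in each of both windows. Over all genes, 1.39% of the tests passed in the first of these windows and 2.50% in the second. Over 48 to 120 h, 3 MRP genes were higher and 18 lower in Th2 than in Th0 cells (11.1% and 14.0% of all genes), and 2 had higher and 11 lower levels in Th1/2 than in Th0 cells (10.1% and 13.8%). In Th1 against Th2 cells 5 genes had higher and 4 lower levels (10.5% and 9.97%), and in Th1 against Th1/2 cells 4 had higher and 3 lower levels (8.41% and 7.32%). None passed in Th1 vs. Th0 (5.80% of all genes, 10 MRP genes at an unadjusted p under 0.05) or in Th2 vs. Th1/2 cells (4.13%, 5 genes). The differences were small, with a median of -0.12 in Th2 vs. Th0 and -0.08 in Th1/2 vs. Th0 cells. In this fit, which leaves out the pairing by experiment and time, these counts were close to or under the share of all genes. The genes lower in Th2 than in Th0 cells were the exception. Several comparisons share the Th0 arrays.

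Samples of the same experiment and time deviated together, and with the experiment within each time point as a block the counts grew, as they did for all genes. In that fit 32 MRP genes were lower in Th2 and 21 in Th1/2 than in Th0 cells, as were 2760 and 2814 of the 13817 genes. In either direction 36 and 29 MRP genes differed (35.6% and 35.0% of all genes). Such a difference was called for 23 genes in Th1 vs. Th2 (30.9%), 17 in Th1 vs. Th1/2 (25.8%), 10 in Th1 vs. Th0 (13.5%) and 4 in Th2 vs. Th1/2 cells (10.1%). There were 6 calls in each of the earlier windows, against 3.77% and 6.50% of the tests over all genes. The late counts also turned on few arrays. The 18 genes lower in Th2 than in Th0 cells became 7 without Th2 replicate 1, 8 without Th0 replicate 2 and 6 without the 96 h arrays, a setting chosen after seeing the data. The 11 lower in Th1/2 than in Th0 cells became 5 without Th0 replicate 2, 22 without Th0 replicate 1 and 6 without 96 h. At 96 h the array medians over the MRP genes against 0 h were 0.27 and 0.51 for Th0, 0.10 and 0.23 for Th1, 0.14 and 0.27 for Th1/2 and 0.05 and 0.11 for Th2 cells, the second Th0 array being the one that stood apart.

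Some markers of other cells also differed between the late cultures. The sum of Cd79b and Ms4a1 was 242 to 338 intensity units (median 269) on the 8 late Th0 arrays, 259 to 313 (280) in Th1, 375 to 580 (454) in Th1/2 and 307 to 747 (402) in Th2 cultures, with Ms4a1 below the threshold. The sum of the 3 NK cell markers was 305 to 498 in Th0, 347 to 810 in Th1, 294 to 370 in Th1/2 and 285 to 320 in Th2 cultures. Of these markers only Klrk1 differed clearly, with late log2 means of 7.35, 8.19, 6.76 and 6.51 in this order. Klrb1c stayed at 6.96, 6.94, 7.04 and 6.99, and Ncr1 was below the threshold. The myeloid sums lay between 341 and 391 and the erythroid sums between 164 and 280 in all 4. The part of these markers in the late differences was not tested.

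**Figure D5:**
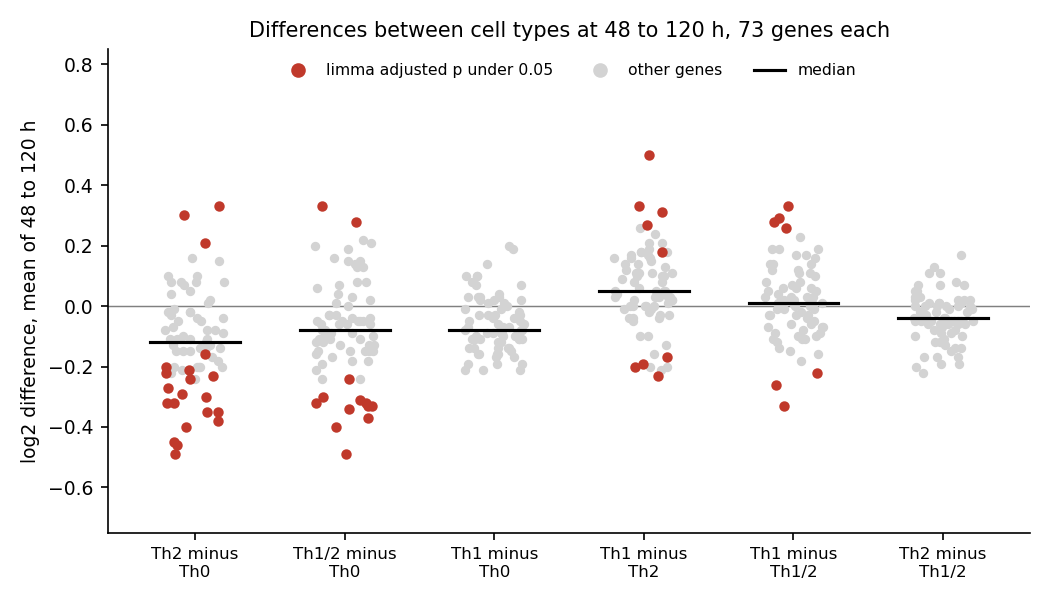
Log2 difference between cell types in the mean over 48 to 120 h (vertical axis) of the 73 MRP genes in 6 comparisons (horizontal axis, points spread sideways for sight), with genes past limma's test in red, others in grey and the median as a bar. In Th2 minus Th0 cells 18 of the red points lie below 0 and 3 above, and in 2 comparisons no gene is red.

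The genes with the largest late differences were Mrpl40, Mrpl21, Mrpl13 and Mrpl16 of the large subunit and, in the other direction, Mrps6. Mrpl40 lay between 11.05 and 12.01 (median 11.45) on the 8 late Th0 arrays. The Th1 arrays spanned 10.92 to 11.69 (median 11.30), the Th1/2 arrays 10.48 to 11.36 (11.01) and the Th2 arrays 10.54 to 11.62 (10.94). The groups overlap over the window as a whole, because the level also falls with time, yet at each of the 4 times the Th2 array lay below the Th0 array of its experiment. Its difference was -0.49 ± 0.10 in Th2 vs. Th0 (adjusted p = 2.51e-04) and -0.49 ± 0.10 in Th1/2 vs. Th0 cells (adjusted p = 2.65e-04). Mrpl21 was lower in Th2 than in Th0 cells by -0.46 ± 0.07 (adjusted p = 3.22e-07) and Mrpl13 by -0.45 ± 0.07 (adjusted p = 2.28e-06). Both, like Mrpl40, passed without any one set of replicates and without the 96 h arrays. Of the 31 late differences that were followed, up to 5 in each direction and comparison, 17 no longer passed without 96 h, among them those of Mrps6 in all 4 comparisons that name it.

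Mrpl16, a protein close to the peptidyl transferase centre, lay between 9.69 and 10.67 (median 9.83) on the late Th0 arrays, while Th1 arrays spanned 9.56 to 10.66 (median 10.03), Th1/2 arrays 9.39 to 10.40 (9.69) and Th2 arrays 9.18 to 10.56 (9.29). It was higher in Th1 than in Th2 cells by 0.50 ± 0.10 (adjusted p = 1.22e-04), though not without Th1 replicate 2 (adjusted p = 0.0747). Mrps6 lay between 10.30 and 12.17 (median 10.96) in Th0 and between 10.90 and 12.11 (11.33) in Th2 cells and was higher in Th2 by 0.33 ± 0.08 (adjusted p = 0.00122), though not without Th2 replicate 1 (adjusted p = 0.0611). At 120 h its Th0 arrays read 10.41 and 10.30, its Th1 arrays 10.56 and 10.70, its Th1/2 arrays 11.14 and 11.05 and its Th2 arrays 10.90 and 11.07, so Th1/2 and Th2 lay above Th0 and Th1 without overlap. This split at 120 h was noticed in the values and not tested. Mrpl33 was lower in Th1/2 than in Th0 (-0.34 ± 0.05, adjusted p = 1.97e-06) and Th1 cells, where it was higher by 0.29 ± 0.05 (adjusted p = 5.01e-05).

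The other genes with large late differences were given by the same tests. Lower in Th2 than in Th0 cells was also Mrpl42 (-0.38, adjusted p = 0.00445), and Mrpl48 (0.30, 0.00873) and Mrpl24 (0.21, 0.0046) were higher. In Th1/2 vs. Th0 cells Mrpl13 (-0.40, 1.92e-05), Mrpl42 (-0.37, 0.00623) and Mrpl3 (-0.33, 0.0083) were lower, and Mrps6 (0.33, 0.00134) and Mrpl48 (0.28, 0.0157) higher. The 4 genes Mrpl40, Mrpl16, Mrpl13 and Mrpl33 were each higher in Th1 than in both Th2 and Th1/2 cells. Mrps6 was lower in Th1 than in Th2 (-0.23, 0.0346) and Th1/2 cells (-0.22, 0.0449). Mrpl14, Mrpl24 and Mrps26 were also lower in Th1 than in Th2 cells (-0.20, -0.19 and -0.17), as were Mrps28 and Mrpl38 against Th1/2 cells (-0.33 and -0.26). Of the calls in this paragraph, those of Mrpl13 in Th1/2 vs. Th0 cells and of Mrpl33 in Th1 vs. Th1/2 cells passed without any one set of replicates, and each of the others was lost without at least 1 set.

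The fall from 24 to 35 h to 73 to 120 h was present in each cell type. The test was passed by 58 MRP genes for Th0, 64 for Th1, 66 for Th1/2 and 63 for Th2 cells (all genes: 22.1%, 24.6%, 24.3% and 25.6% lower), and 2, 0, 0 and 1 rose (21.4%, 21.3%, 22.0% and 22.8%). The median differences were -0.60, -0.71, -0.69 and -0.76. In either direction, the size of this fall differed between Th2 and Th0 cells for 10 MRP genes (12.8% of all genes). It differed between Th1/2 and Th0 cells for 4 (8.79%) and between Th1 and Th2 cells for 1 (7.27%). These pooled counts lie near or under the shares of all genes. By direction, 9 of the 10 differences were negative, a larger fall in Th2 cells (12.3% of the 73, against 7.22% of all genes). With the experiment within time points as a block, the counts against Th0 cells in either direction were 29 and 19 (25.4% and 19.3% of all genes). Of these, 26 and 17 were negative (35.6% and 23.3% of the 73, against 14.7% and 10.6%). The 10 became 3 without Th0 replicate 1 or Th2 replicate 2, and the 4 became 1 without Th1/2 replicate 1. Mrpl21 fell by 0.40 on the log2 scale in Th0 and by 0.95 in Th2 cells, whereas Mrps6 fell by 1.93 in Th0 and by 1.46 in Th2 cells.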

How the data were processed

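RNA of naive CD4+ T cells and of Th0, Th1, Th1/2 and Th2 cultures was hybridised to Illumina Mouse Sentrix-6 arrays, with 1 array per condition in each of 2 independent experiments. Per the authors' methods the signals were corrected for background, quantile normalized and log2 transformed. Which software did so was not stated in the sources used. The deposited values were linear intensity units (55.8 to 69892), so log2 was taken and nothing else was changed. No column was left unused. GEO's platform annotation gave 34773 of 45135 probes 1 gene symbol, 18 several and 10344 none. Probes whose mean passed the median of all values (6.77) in at least 1 condition were kept, and the brightest stood for each gene. For 29 MRP genes 46 other probes passed, of which 45 agreed in sign at 24 to 35 h and 28 lay within 0.5 of the probe used.

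Limma 3.58.1 in R 4.3.3 fitted 1 mean per condition to all 74 arrays, with Benjamini-Hochberg adjustment over 13817 genes at 0.05. The code was tested on simulated data. Groups and replicate numbers came from the sample titles, and the numbers mark the 2 independent experiments described in the study's methods. Deviations of same-numbered arrays correlated within time points (median r 0.54, 52 of 54 pairs of conditions above 0.1), and over all 666 pairs the median was 0.11. The p-values rest on 2 experiments on pooled animals. The main fit treated arrays of the same experiment and time as independent, although they deviated together. For means over the 4 cell types, against 0 h or between times, the p-values can therefore be too small. For differences between cell types, the main fit called fewer genes than the fit with the experiment within time points as a block.

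The genes, lists and windows were chosen with earlier results of these data known. The rule for named genes took structural groups, the 5 largest and smallest changes at 24 to 35 h, the 3 dim genes, the Mrps18 paralogs and Mrps30, up to 5 genes per direction in each comparison of cell types, and the extremes of the other lists, and the 10 kinetic genes with the largest change. Genes named for their course at 3 or 120 h, single-cell-type kinetic genes and those with a different decline were added after seeing values. Alternatives were the filter, normalization, probe choice, variance model, blocks, arrays left out and the fold criterion. Normexp with an offset of 50 was run as an alternative because the values were already normalized.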

Additional observations from a re-analysis of the deposited data

Results flagged for a closer look

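For 11 MRP genes the change from 24 to 35 h to 73 to 120 h differed between 2 cell types by limma's test of that difference, 15 results in all. The calls made up 13.7% of the 73 genes in Th2 vs. Th0, 5.48% in Th1/2 vs. Th0 and 1.37% in Th1 vs. Th2 cells, against 12.8%, 8.79% and 7.27% of all genes. Negative values mean a larger fall in the first cell type named. In Th2 vs. Th0 cells they made up 12.3% of the 73, against 7.22% of all genes, and positive values 1.37%, against 5.53%.

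In Th2 vs. Th0 cells the difference was -0.59 for Mrpl40 (adjusted p = 0.0306), -0.58 for Mrpl39 (0.0174), -0.55 for Mrpl21 (0.00125), -0.55 for Mrps18c (0.0486), -0.52 for Mrps35 (0.0232), -0.49 for Mrpl13 (0.00735), -0.46 for Mrpl22 (0.0334), -0.39 for Mrpl23 (0.037) and -0.34 for Mrpl47 (0.0499), and 0.47 for Mrps6 (0.0255), which fell less in Th2 cells. In Th1/2 vs. Th0 cells it was -0.61 for Mrpl40 (0.0297), -0.45 for Mrpl21 (0.0103), -0.42 for Mrpl13 (0.0291) and 0.62 for Mrps6 (0.00287). In Th1 vs. Th2 cells it was 0.69 for Mrpl16 (0.00865). Each had the same sign in both experiments. The Mrpl21 difference in Th2 vs. Th0 cells was the one that passed without any one set of replicates (adjusted p up to 0.0343). That of Mrpl47 passed in none of these fits. Without the 2 arrays that stood apart, Mrpl47, Mrpl23 and Mrpl40 no longer passed in Th2 vs. Th0 cells, nor did Mrpl13 and Mrpl40 in Th1/2 vs. Th0 cells.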

How the results depend on the processing

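Of 770 counts recomputed under 20 alternative settings, 704 stayed within 1.5 times the reported count, and no named gene changed direction past the test. The cause of the other changes was not tested.

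Between cell types, calls at 3 to 12 h were 2 after normexp and quantile normalization and 0 with arrays centred on the median, and calls in Th1 vs. Th0 cells at 48 to 120 h were 1 and 2. The replicate block gave 1 call at 24 to 35 h. The replicate block within time points gave 6 and 6 calls in the early and middle windows, 23 in Th1 vs. Th2, 10 in Th1 vs. Th0, 17 in Th1 vs. Th1/2 and 4 in Th2 vs. Th1/2 cells, 32 and 21 genes lower in Th2 and Th1/2 than in Th0 cells, 29 and 19 with a different decline and 18 calls in the other 4 comparisons of declines. The blocks moved no other recomputed count by over 1.5 times. The replicate block within time points was run for the comparisons between cell types only. Counts against 0 h, between consecutive times and of declines within a cell type were not recomputed with it. The mean of all probes gave 2 calls in those 4 comparisons. Without the 2 arrays that stood apart, 1 gene fell from 96 to 120 h, 1 differed in Th1 vs. Th0 cells and 2 declines differed in Th1/2 vs. Th0 cells. A 1.5-fold criterion gave 61, 60 and 61 kinetic genes in Th0, Th1 and Th2 cells. Without 96 h, the late calls were 4 in Th1 vs. Th2 and 2 in Th1 vs. Th1/2 cells, and 6 and 6 were lower in Th2 and Th1/2 than in Th0 cells, and 17 of 31 named late differences no longer passed.

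Leaving out 1 set of replicates at a time gave 5 to 19 genes lower at 3 h, 4 to 8 at 96 h and 4 to 9 at 120 h, each lowest without naive replicate 1, and 17 to 26 higher at 96 h, lowest without naive replicate 2. It gave 4 to 14 lower at 35 than at 24 h (lowest without Th1 replicate 1) and 1 to 3 lower at 120 than at 96 h. Late calls ranged from 3 to 10 in Th1 vs. Th2 (lowest without Th2 replicate 1), 0 to 7 in Th1 vs. Th0 (highest without Th0 replicate 1) and 3 to 7 in Th1 vs. Th1/2 cells, genes lower in Th2 than in Th0 from 7 to 24 and in Th1/2 than in Th0 from 5 to 22, and early calls from 0 to 2. Different declines ranged from 3 to 9 in Th2 vs. Th0, 1 to 4 in Th1/2 vs. Th0 and 0 to 4 in the other 4 comparisons. The residual SD had a median of 0.15. Probes near the threshold of 6.77 limit what can be read, as those of Mrpl20 and Mrpl47 with means of 6.82 and 6.73 gave changes of 0.04 and -0.02 where the brighter probes gave 2.44 and 1.69.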
